A study of Mus musculus with 4 samples.

Results

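Broad MOV10 domains are stretches of RNA of 300 nt or more along which MOV10 peaks followed each other on the same strand with at most 50 nt between neighbours. They were chosen by the measured positions of the peaks, through the width that remained after merging, and 686 of the 6307 merged intervals of the list (10.9%) qualified. These 686 domains held 3655 of all 12236 peaks (29.9%), and the other 5621 intervals were narrower. The peaks came from eCLIP, which crosslinks proteins to RNA by ultraviolet light, pulls one protein down with its RNA fragments and sequences the fragments beside an input. The cells were N2A, a mouse neuroblastoma line that the labels call a neurocarcinoma line, grown in serum-containing medium. The comparison was between 2 immunoprecipitates made with an anti-MOV10 antibody and 2 inputs, and the labels name no genotype change and no drug for either and do not say whether replicates were separate cultures. The single list analysed gives each peak 1 position, 1 −log10 p and 1 log2 fold enrichment (immunoprecipitate against input) over all 4 libraries. No value per library was used here, so no spread between replicates stands beside any value, the depth of the libraries is unknown, and all comparisons below are descriptions without a test. The list holds no expression values, so the cell line was not checked against marker genes.

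MOV10 is an ATP-dependent RNA helicase of the cytoplasm that travels along RNA in the 5′ to 3′ direction and associates with Argonaute proteins, the effectors of microRNA silencing. It is best known for its role in the repression and decay of mRNAs through their 3′ untranslated regions and for its action against retroelements.

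Only 1 of the 686 domains overlapped the RefSeq sequence windows available here, which run from 250 bases before to 50 bases after annotated gene starts (GRCm38.p6). It lay inside Tulp4, a tubby-like protein gene, on the plus strand at chr17:6137724-6138452, and it held the whole 300-base window of an internal annotated start at position 6138148. The domain was 729 nt wide with 6 peaks, 102549 nt from the annotated 3′ end and 31835 nt from the first base of the gene. Peaks covered 296 of the 300 bases of the window. The window held the only letters of a broad domain that could be read here. The 30 central bases of the 2 peaks that lay wholly within it are shown, 5′ to 3′, with capitals where a searched motif matched.
Tulp4 peak chr17:6137936-6138035, log2 fold enrichment 4.92, bases chr17:6137971-6138000: aaggagaaacagaagcctgcagcctagtct
Tulp4 peak chr17:6138037-6138102, log2 fold enrichment 5.11, bases chr17:6138055-6138084: cagTTTATTcatactcagtgacccgcaggc
The first of these peaks was 39% G and C over its full length and the second 50%, against 48% for the whole window and a median of 52.7% over all 32851 windows of the table. The capitals mark TTTATT, the reverse complement of AATAAA, the sequence of the polyadenylation signal. Of 3 motifs searched on both strands of the window, AATAAA matched once, on the opposite strand. ATTTA, the core of AU-rich elements, matched once on the strand of the RNA, not within the printed bases. TGTANATA, the Pumilio element, matched 0 times. The shares of all windows with a match on either strand were 19.6%, 34.1% and 3.08% in that order, so the 2 matches are of kinds common among these windows. Most bases of the windows lie before an annotated gene start, so the windows are no background of MOV10-bound RNA for motifs or for G and C. From 5′ to 3′ the 6 peaks of the domain had log2 fold enrichments of 3.89, 5.10, 4.92, 5.11, 4.10 and 4.49, and the flanking peaks were thus weaker than the run of 3 that ended before the internal start.

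The domains were dense runs of short peaks. The median domain was 390 nt wide (interquartile range 333 to 501.75), held 4 peaks (3 to 7) and had 93.8% of its bases under a peak. Of 2969 junctions between neighbouring peaks of a domain, 1996 (67.2%) were exact contacts with no base between, and 164 domains (23.9%) had no gap at all. Widths fell off steeply. Under 400 nt there were 369 domains, from 400 to under 500 nt 142, from 500 to under 750 nt 127 and from 750 to under 1000 nt 33, and 15 were 1000 nt or wider, up to 1718. Single peaks had a median of 69 nt in domains, where domains of many peaks weigh most, and of 76 nt in the narrower intervals. Domains of 2 or 3 peaks numbered 236 and those of 10 or more 70. With touching peaks alone merged, 290 intervals reached 300 nt, and with a minimum of 500 nt 175 domains were left, so the number of domains is set by the rule.

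**Figure D1:**
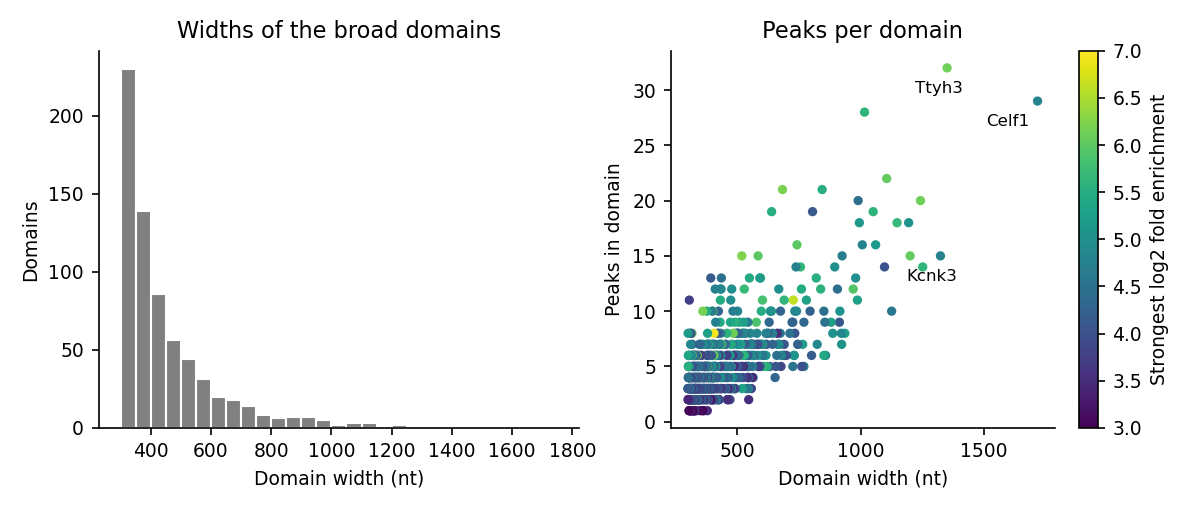
Left, number of broad domains by width in bins of 50 nt. Right, peaks per domain against width in nt, 1 point per domain, coloured by the strongest log2 fold enrichment in it. Most domains are under 500 nt, Celf1 is the widest at 1718 nt, and Ttyh3 holds most peaks, 32.

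Domains contained stronger peaks than narrower intervals, which is given as a description since enrichment comes from the same peaks that set the width. The strongest log2 fold enrichment had a median of 4.38 over domains and 3.62 over narrower intervals. A wide interval draws its maximum from more peaks, and over all single peaks the medians were 3.99 inside domains and 3.62 outside. A strongest peak of 5 or more was found in 133 of 686 domains (19.4%) and in 211 of 5621 narrower intervals (3.75%), lone peaks included. Of the 100 strongest peaks of the list, 61 lay in domains, beside 29.9% of all peaks. The −log10 p stops at 400, a value listed for 84 peaks, of which 40 (47.6%) lay in 15 domains. Across domains, width had a Spearman correlation of 0.35 with the strongest log2 fold enrichment, 0.19 with the median one and 0.62 with the number of peaks (n = 686, domains of 1 gene sharing their transcript and all sharing the same libraries). The median strongest value rose with the width class, from 4.20 under 400 nt through 4.49 and 4.65 to 5.01 at 750 nt or more. The median number of peaks rose as well, from 3 through 5 and 7 to 12. The median value of a domain showed no steady rise, with medians of 3.77, 4.00, 3.96 and 4.09 in the same classes.

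Enrichment within a domain was uneven, with a median difference of 0.91 between its strongest and weakest peak. In the 327 domains of 5 or more peaks, each divided into 5 equal parts, peaks in the part at the 5′ edge had a median of 3.89, those in the middle part 4.21 and those at the 3′ edge 4.17. Relative to the median of their own domain these were −0.12, 0.05 and 0, so the 5′ edge was the lowest of the 5 positions by a small amount, and the interquartile ranges of the 5 positions overlapped. The strongest peak of domains with 3 or more peaks lay in the first of 3 equal parts from the 5′ edge in 172 cases, in the middle part in 186 and in the last in 220 of 578. Gfpt1, the first enzyme of hexosamine synthesis, had a graded domain. Its domain of 404 nt had values of 3.23, 3.56, 3.91, 4.89, 5.53 and 6.15 from 5′ to 3′. Each peak exceeded the one before, and the second Gfpt1 domain, of 346 nt, reached 4.32.

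**Figure D2:**
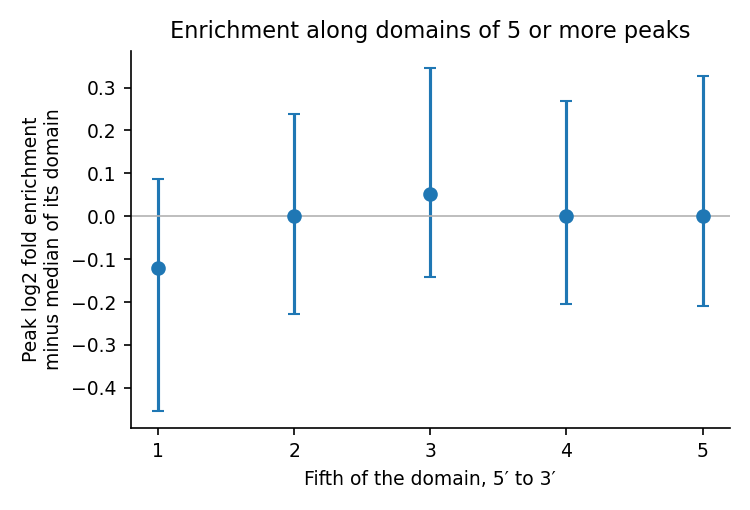
Log2 fold enrichment of each peak minus the median of its domain, in 5 equal parts of the domain from 5′ to 3′, for the 327 domains of 5 or more peaks. Points are medians over peaks and bars the interquartile range. The part at the 5′ edge has the lowest median, −0.12, and all bars overlap.

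Broad domains lay near the 3′ ends of protein-coding genes. All 629 domains whose midpoint fell in exactly 1 annotated gene were in coding genes, 473 genes in all. That is 2.16% of the 21896 annotated coding genes and 28.1% of the 1683 coding genes with any merged interval. Where the sequence table gave the strand of the gene, 496 of 496 domains lay on it. Neither the coding share nor the strand share was counted for narrower intervals, so neither is shown to be particular to domains. Among domains in genes spanning 15 kb or more, the midpoint of 501 of 561 (89.3%) lay less than 5 kb before the annotated 3′ end, beside 84.8% of 4573 narrower intervals. The median distance was 1295.5 nt for domains and 1699.5 nt for the narrower intervals. The stretch from 500 to 2000 nt before the end held 54.0% of domains and 41.3% of narrower intervals, whereas the stretch from 2 to 5 kb held 22.3% and 28.4%. Below 500 nt the shares were 13.0% and 15.2%, where a domain inside the gene cannot have its midpoint nearer than 150 nt to the end. With the window set to 2 kb the share of domains was 67.0%. The distance had almost no rank correlation with width (Spearman 0.04, n = 629). Gene spans include introns and the table holds no exons, so whether a domain is exonic, intronic or in an untranslated region was not determined.

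**Figure D3:**
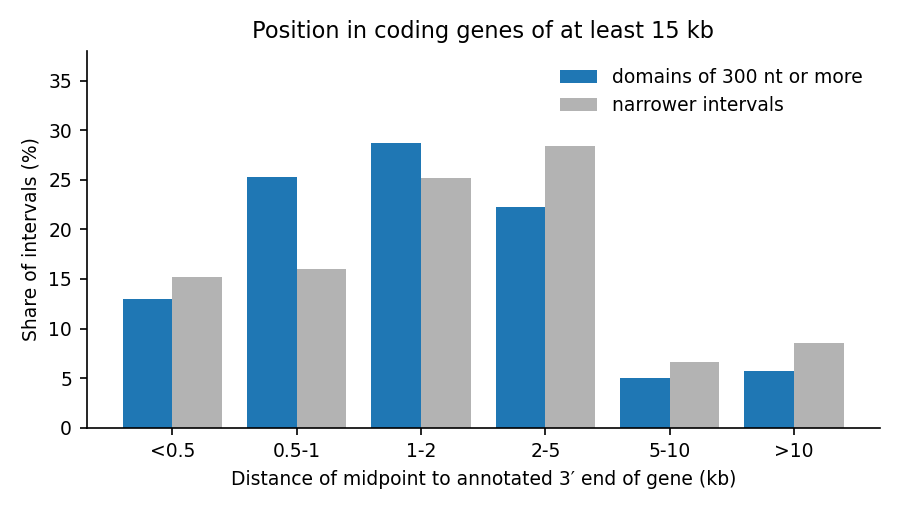
Share of intervals in percent by distance of the midpoint to the annotated 3′ end in kb, for 561 broad domains (blue) and 4573 narrower intervals (grey) in coding genes of at least 15 kb. Domains exceed narrower intervals between 0.5 and 2 kb and fall below them in the other bins.

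The widest domain was in Celf1, which encodes a CUG-binding regulator of splicing and mRNA stability. It ran over 1718 nt of chromosome 2 (91017372 to 91019089, plus strand) with 29 peaks and 10 gaps, and 1602 of its bases were under a peak. Its enrichment was moderate throughout, with peaks between 3.41 and 4.76, and a second domain of 302 nt followed it towards the 3′ end. Together they held 33 of the 39 peaks of the gene. That Celf1 came first depends on the gap allowed in merging. With touching peaks alone its widest domain was 341 nt, beside 749 nt in Ttyh3 and 715 nt in Fbln2, and with a gap of 100 nt it was 2072 nt, beside 2927 nt in Ttyh3 and 2341 nt in Ago2. When only peaks with a log2 value of 4 or more were merged, Celf1 had no domain.

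Ttyh3, a membrane protein gene of the tweety family, carried 3 domains on chromosome 5 that nearly joined. They were 1351, 1016 and 410 nt wide, lay between 140620601 and 140623527 and filled 94.9% of that stretch. The widest held 32 peaks between 4.33 and 6.13, 6 of them with a −log10 p of 400. The 28 peaks of the 1016-nt domain began at 3.28 at the 5′ edge, and the strongest, 5.59 over only 5 nt, was the third from the 3′ edge. With 2777 nt in all, Ttyh3 had the largest sum of domain widths of any gene, and 72 of its 101 peaks were inside.

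Several of the other widest domains were in genes of membrane, transport or synaptic proteins, a grouping made after the genes were seen. Kcnk3, a background potassium channel gene on chromosome 5, had 1324 nt (30623833 to 30625156) with 15 peaks up to 4.73 and a second domain of 425 nt, and all 21 of its peaks lay in the 2 domains. With touching peaks alone merged, or with only peaks of a log2 value of 4 or more, Kcnk3 had no domain. Adgrl1, the gene of the adhesion receptor latrophilin, had 1201 nt with 15 peaks up to 6.05, where it overlaps the long non-coding RNA gene Gm10644. The strand table placed Adgrl1 on the strand of the peaks. Jph4, a junctophilin gene that links plasma membrane and endoplasmic reticulum, had 1195 nt with 18 peaks up to 5.02, in a gene of 10.11 kb. Cplx1, which encodes the vesicle fusion regulator complexin, had 1097 nt with 14 peaks, none above 4.02. Slc38a1, a neutral amino acid transporter gene, had 2 domains of 1061 and 1051 nt and 1 of 387 nt, with a strongest peak of 5.60. Ncs1, a neuronal calcium sensor gene, had 980 nt with 13 peaks, the weakest 3.38.

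The remaining domains among the 20 widest were in genes of several kinds. Fbln2, which encodes the extracellular matrix protein fibulin, had 1252 nt with 14 peaks up to 5.61. Vat1l had 1148 nt with 18 peaks up to 5.68. Sgsm1, a modulator of small G proteins, had 1126 nt with only 10 peaks and 1 gap, from 3.01 to 4.57, and the strongest was the last at the 3′ edge. Mib1, a ubiquitin ligase of Notch signalling, had 1106 nt with 22 peaks up to 6.04. Tpm4, a tropomyosin gene, had 1007 nt with 16 peaks between 3.01 and 4.78. Larp1, which binds mRNAs of the translation machinery, had 995 nt with 18 peaks up to 5.13, and Eif4b, an initiation factor that assists the helicase eIF4A, 990 nt with 20 peaks up to 4.41. Rapgef1, an exchange factor for Rap, had 987 nt, and Wdtc1 970 nt with its strongest peak, 5.92, at the 3′ edge. Wide domains could thus be strong or weak. The median log2 fold enrichment of these 20 was lowest in Tpm4, followed by 3.51 in Sgsm1, and highest, 5.34, in Ttyh3.

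**Figure D4:**
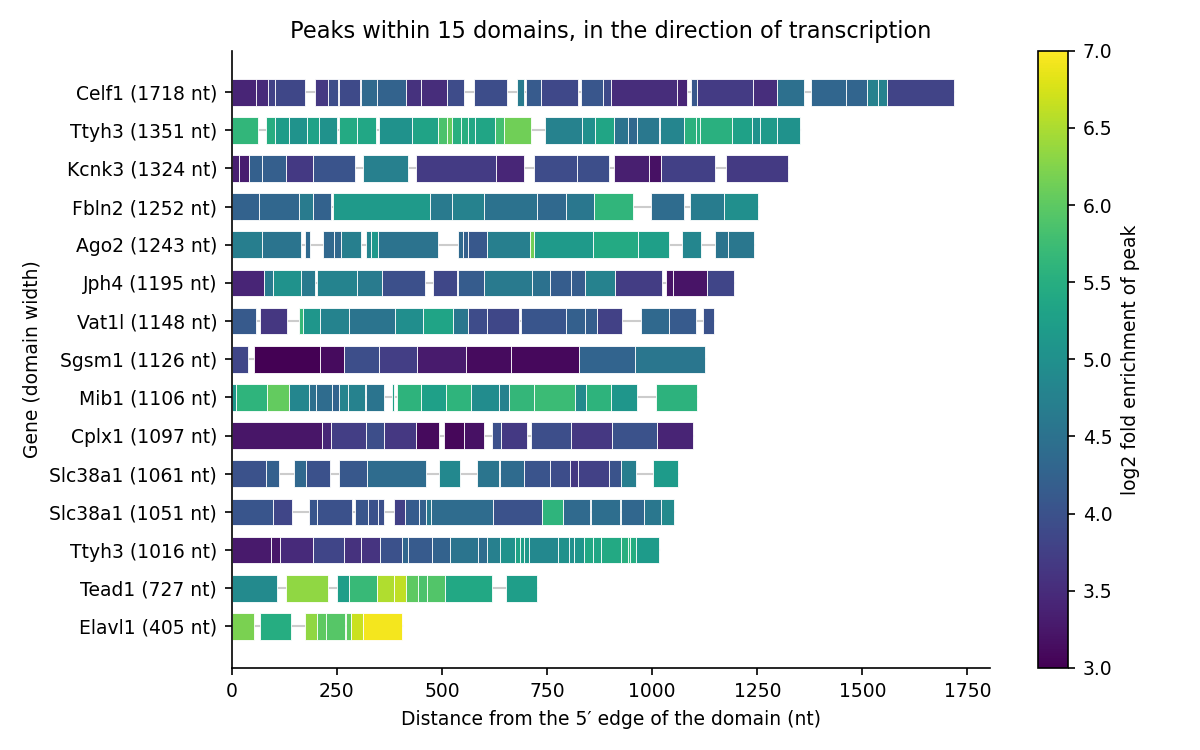
Peaks of 15 domains drawn to scale from the 5′ edge (x axis, nt), 1 row per domain, each bar a peak coloured by its log2 fold enrichment. The 13 upper rows are the widest domains with a single gene, and below them stand Tead1 (6.62 at most) and Elavl1 (6.93 at most).

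The Ago2 transcript, which encodes the slicing Argonaute, held 3 domains on chromosome 15 between 73102182 and 73104322. The widest, 1243 nt, had 20 peaks from 4.08 to 6.13. Its extent depends on the gap allowed, since the widest Ago2 domain was 501 nt with touching peaks alone or a gap of 25 nt and 2341 nt with a gap of 100 nt. From 5′ to 3′ it opened at 4.69, and its strongest peak, only 8 nt wide, lay past the middle and was followed by peaks of 5.17, 5.43 and 5.24. The domains of 387 and 317 nt upstream of it reached 5.32 and 6.19. Together the 3 domains filled 90.9% of 2141 nt and held 32 of the 44 peaks of the gene.

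Of the 8 genes with the strongest peaks in a domain, Ttyh3 alone had its strongest in a domain of over 1000 nt. Elavl1, the gene of the AU-rich-element-binding protein HuR, had the strongest of all in a domain of 405 nt on chromosome 8 (4285993 to 4286397, minus strand). Its 8 peaks had values of 6.19, 5.47, 6.34, 6.02, 5.94, 6.03, 6.68 and 6.93 from 5′ to 3′. The last corresponds to a 122-fold enrichment, and the weakest peak exceeded the strongest of most domains. Its other domains, of 518 and 683 nt, had medians of 5.67 and 5.33. Tead1 encodes a transcription factor that acts with YAP in Hippo signalling, and its single domain was 727 nt wide. From 5′ to 3′ its 11 peaks had values of 4.90, 6.34, 5.23, 5.70, 6.52, 6.62, 6.01, 5.87, 5.92, 5.41 and 5.23, with the highest near the middle and the lowest at the 5′ edge. It held 11 of the 68 peaks of the gene, so most Tead1 peaks lay outside it. Gna13, a G protein α subunit gene, reached 6.29 in a domain of 330 nt beside domains of 738 and 301 nt. Mib1 reached 6.28, in a peak of only 12 nt, in a domain of 337 nt just downstream of its widest.

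Cbx5, which encodes the heterochromatin protein HP1α, had domains that lay farther apart than those of Ttyh3. Its 4 domains were 400, 376, 360 and 316 nt wide and covered 29.9% of the 4862 nt between the first and the last, against 94.9% for the 3 domains of Ttyh3. They held 38 of its 110 peaks. Of the 10 peaks of the 400-nt domain, the 4 at the 5′ edge had values of 5.04, 5.04, 5.07 and 5.13, all with a −log10 p of 400, and the next were 6.08, 5.97 and 6.32. Hmbox1, a homeobox gene, was similar, with 3 domains over 27.5% of 5016 nt and 16 of 60 peaks inside. Such spacing was not particular to Cbx5 and Hmbox1. The share was 10.3% in Farp2 and 32.4% in Smad5, whereas it was 84.7% in Gna13.

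Most genes had a single domain. Of the 473 genes, 353 had 1, 90 had 2, 26 had 3, 3 had 4 and 1 had 6. Neighbouring domains of a gene were a median of 383.5 nt apart, and 54 of 156 such pairs were separated by 200 nt or less. The sum of domain widths had a median of 428 nt per gene and reached 1000 nt in 63 genes. The median gene with a domain had 51.5% of its peaks inside domains, and 58 genes had all of them inside. In 250 of the 415 genes that also had narrower intervals (60.2%), the strongest peak was in a domain. This share is to be read beside the 51.5% of peaks inside domains in the median gene, a figure that includes the 58 genes. Whether it exceeds the share of peaks in domains of the same genes was not tested. After Ttyh3, the genes with most nt in domains were Tcf20, a transcriptional coregulator gene, with 2755 nt, Slc38a1 with 2499, Celf1 with 2020, Mib1 with 1976 and Tmem164 with 1952. They were followed by Ago2 with 1947, the cytoskeletal septin gene Septin8 with 1798, Kcnk3 with 1749 and Fbln2 with 1733.

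**Figure D5:**
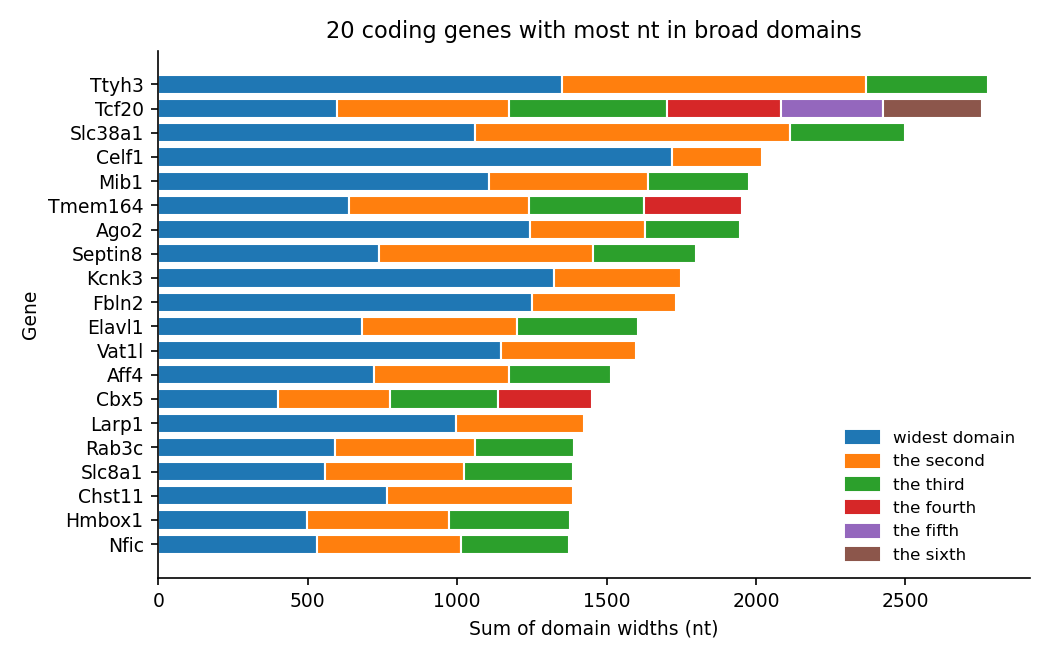
Sum of domain widths in nt for the 20 coding genes with most, each bar divided into its domains from the widest to the narrowest. Ttyh3 leads with 2777 nt in 3 domains, and Tcf20 reaches 2755 nt with 6.

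A minority of domains lay far inside their genes. In genes of at least 15 kb, 28 domains in 19 genes lay 5 to 10 kb from the 3′ end and 32 domains in 17 genes lay more than 10 kb from it. Those beyond 10 kb had a median strongest peak of 4.86, beside 4.39 for the 501 within 5 kb, and a median width of 414.5 against 384 nt. Tcf20 alone supplied 6 of the 32, and the median strongest peak of the other 26 was 4.59. Slc8a1, the sodium-calcium exchanger gene, had the farthest. Its 3 domains of 557, 465 and 367 nt lay on chromosome 17 between 81647818 and 81649568, from 274991 to 276280 nt before the annotated 3′ end, and held 16 of its 17 peaks, up to 5.17. Maml3, a Notch coactivator gene, had domains of 523 and 312 nt at 169417 and 168408 nt, and these were weak, at most 3.93. The Tulp4 domain whose letters are given above was the next, at 102549 nt, and a second Tulp4 domain of 304 nt, a single peak of 3.47, lay 772.5 nt from the end. Ep400, a chromatin remodelling gene, had 488 nt with 5 peaks between 3.13 and 3.51 at 91845.5 nt.

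Tcf20 had all 6 of its domains between 43561.5 and 47934 nt from the 3′ end. They were 597, 577, 528, 380, 343 and 330 nt wide, and their strongest peaks were 5.47, 5.87, 5.71, 5.36, 5.47 and 5.45. The strongest peaks thus differed little between the 6, and the weakest peak of any of them was 4.21. The domains of Fbln2 lay 18796.5 and 19726 nt from its end. The 3 domains of the guanine nucleotide exchange factor gene Farp2 lay from 30090 to 39304 nt from its end and reached 5.43. In Tmem164 4 domains lay between 6104.5 and 8879 nt from the end and reached 5.87. In Septin8 3 lay between 5718 and 7197 nt. Within 5 kb of a 5′ end and in a gene of at least 15 kb there was 1 domain, in the angiogenesis inhibitor gene Vash1, 307 nt wide and at most 3.79, 970 nt from that end.

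Genes shorter than 15 kb held 68 domains in 61 genes, with a median strongest peak of 4.09. The widest was that of Jph4. The domain of Vamp2, a vesicle SNARE gene of 3.854 kb, was 880 nt wide and reached 5.28. The cell cycle inhibitor gene Cdkn1a, of 9.744 kb, had 858 nt with 6 peaks up to 4.80.

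Of 11 gene lists, 10 had members with a domain. The lists were chosen with earlier results of these data known, so their shares are no independent evidence, and they are to be read beside 2.16% of all coding genes and 28.1% of those with an interval. Of 32 genes of microRNA silencing and the CCR4-NOT deadenylase, 13 had an interval and 4 a domain (12.5% of the list, 30.8% of those with an interval). After Ago2 came Lin28a, which blocks let-7 maturation, with domains of 385 and 324 nt up to 4.53, the deadenylase gene Cnot6 with 371 nt up to 4.91 and Tnrc6b, a GW182 protein gene, with 338 nt up to 4.03. Tnrc6b had 36 peaks in 24 merged intervals and only 3 of these peaks in its domain. In the list of 40 mRNA decay and P-body genes, 13 had an interval and 4 a domain (30.8% of those with an interval), Larp1, Larp4b (484 and 365 nt), the roquin gene Rc3h2 (437 and 423 nt, up to 5.61) and the decapping activator Patl1 (430 nt, 3 peaks up to 3.69).

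Splicing and nuclear RNA-binding protein genes had a domain in 7 of 56, that is in 41.2% of the 17 with an interval. Next to Celf1 and Elavl1, the splicing factor gene Srsf1 had 591 nt with 13 peaks, the strongest 5.20 and the median 3.48. Nova2, a neuronal splicing regulator, had 3 domains of at most 421 nt that reached 5.86. Translation factors had a domain in 2 of 43, Eif4b and the eIF4E-binding protein gene Eif4ebp2 (305 nt, up to 4.92). That was 22.2% of the 9 with an interval, too few genes to tell this share from the 28.1% of all coding genes with one. Of 41 cytosolic ribosomal protein genes, 4 had an interval and 0 a domain.

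Chromatin and transcription regulators had a domain in 10 of 60 genes (35.7% of the 28 with an interval). The list holds Tcf20, Tead1, Hmbox1 and Cbx5, described above. Suz12, a Polycomb gene, had 690 and 507 nt with all 13 of its peaks inside, and the SWI/SNF gene Smarcc1 579 and 543 nt with 17 of 22. Cytoskeleton and neurite genes had a domain in 8 of 45 (40.0% of the 20 with an interval). Dpysl3, of the collapsin response mediators, had 844 and 435 nt and reached 5.47. The dendritic microtubule-associated protein gene Map2 had 746 nt up to 5.37, the kinesin gene Kif5c 675 and 408 nt up to 5.04, and Mapt, which encodes tau, 566 and 496 nt up to 4.49. Map1b had 31 peaks and a single domain of 305 nt, in which 11 peaks were packed and none exceeded 3.73.

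Adhesion, axon guidance and synapse genes had a domain in 5 of 54 (35.7% of 14). The semaphorin coreceptor genes Plxna1 and Plxna4 led with 922 nt up to 4.86 and with 448 and 352 nt up to 5.09, and the synaptic vesicle gene Syn1 and the neuroligin gene Nlgn2 had 398 and 375 nt. Kinases, phosphatases and G protein genes had a domain in 9 of 55 (31.0% of 29), led by the kinase gene Wnk1 with 760 and 452 nt up to 5.43, Gna13, and the homeodomain-interacting kinase gene Hipk1 with 599 and 312 nt. Ubiquitin ligase and deubiquitinase genes had a domain in 9 of 57 (36.0% of 25). After Mib1 came Usp12 with 851 nt up to 4.46, Usp31 with 525 and 303 nt up to 5.22 and Trim2 with 486 nt up to 3.73. Cell cycle and growth genes had a domain in 5 of 40 (55.6% of 9). Among them were the mitotic phosphatase gene Cdc25b with 916 nt up to 5.03, Cdkn1a, Trp53inp2 with 432 and 313 nt, and the transcription factor gene E2f1 with 302 nt up to 4.23. In Cdc25b all 10 peaks lay in the domain, whereas in Trp53inp2 it was 10 of 30. Over all genes with a domain the median strongest peak was 4.39, and the list medians ran from 4.46 for the ubiquitin list to 5.16 for the cytoskeleton list.

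In 39 domains (5.69%) the midpoint lay where several genes overlap, and in 32 of these the strand table left exactly 1 gene. The widest after Adgrl1 lay in the overlap of Gm30977, Npcd and the pentraxin receptor gene Nptxr, with 923 nt and 7 peaks up to 5.01. The next, of 914 nt and 9 peaks up to 4.08, lay where Wipf3 and Scrn1 overlap, and the strand left Wipf3. No domain had its midpoint in a non-coding gene alone, which was not counted for the narrower intervals. Of the 686 domains, 0 overlapped an annotated microRNA hairpin on the same strand, beside 2 of 5621 narrower intervals.

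The other 18 domains (2.62%) had their midpoint in no annotated gene span. Of these, 15 lay within 5 kb past the annotated 3′ end of the nearest upstream gene on the same strand, among the genes with a strand in the table. The distances are those of midpoints. The widest were 2 domains of 725 and 690 nt on chromosome 5, with strongest peaks of 4.55 and 3.97. Their midpoints lay 878 and 89.5 nt past the end of the G protein gene Gna12, so part of the 690-nt domain lay inside the annotated gene. The next, of 501 nt with 10 peaks up to 4.80, lay 1150 nt past the end of Ankrd52. Trim56, an antiviral ubiquitin ligase gene, was the nearest upstream gene of 4 of the 18, at 1777.5, 3062.5, 4285 and 5065.5 nt past its end, and they reached 4.55.

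A few domains were broad without being composite. In 19 domains a single listed peak of 304 to 378 nt met the width, and these were weak, with a median log2 fold enrichment of 3.19 and at most 3.90. At the limit of the rule the change was gradual, with 54 intervals in the 10 nt below it and 53 in the 10 nt from it upwards. Just inside stood domains of 300 nt in Taok1 (3 peaks up to 4.45), Shisal1 (3 up to 4.12), Rims3 (8 up to 5.19) and Parva (3 up to 4.75). Just outside stood intervals of 298 nt in Nop2 (4 peaks up to 4.16) and Tmem164 (7 up to 5.77) and of 299 nt in Dtx4 (4 up to 4.99) and Stmn2 (1 of 3.33).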

How the data were processed

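The submitters' processing notes name the builds mm10 and GRCm38.p6. The deposited peak list has no header. Its values were read, from their range and the usual column order of eCLIP peak files, as the −log10 p (at most 400) and the log2 fold enrichment that the authors gave each peak, and both start just above 3. The list is labelled IDR, for irreproducible discovery rate, and is thus a list of peaks kept as reproducible between replicates. Not given in the sources used here are the aligner, the peak caller, and the thresholds of the caller and of the reproducibility filter. Peak starts were converted to count from 1, peaks at most 50 nt apart on 1 strand were merged with pandas 2.3.3, and intervals of 300 nt or more were kept. Merging was checked on simulated peaks. Genes were RefSeq spans (GRCm38.p6) that held the midpoint, and the gene end was taken from the strand of the peaks. Members and gene lists were chosen with earlier results of these data known. Genes were named by rule: the 20 widest domains, the 10 genes with most domain nt, the 8 with the strongest peak, the 5 farthest from the 3′ end, up to 3 domains in several genes and up to 3 in none, the 4 intervals on either side of 300 nt, and up to 4 per list by width, of which some are not reported here. The 4 intervals inside the limit were taken in order of chromosome where widths tied. Hmbox1, Farp2, Smad5, Vash1, Vamp2, Map1b, E2f1 and Trim56 were named after their values had been seen. Alternatives changed the gap, the width, the peaks entered, the strand, the gene assignment and the window. The only sequences used were the RefSeq windows at annotated gene starts (GRCm38.p6). No whole genome was used here.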

Additional observations from a re-analysis of the deposited data

How the results depend on the processing

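The share of domains within 5 kb of the 3′ end stayed between 87.8% and 90.6% under other gaps, widths, gene assignments and a −log10 p of at least 5, and was 80.3% with peaks of a log2 fold enrichment of 4 or more and 67.0% with a window of 2 kb. The share of narrower intervals within 5 kb was computed at the main setting alone. Whether the contrast of 89.3% with 84.8% holds at other settings was therefore not tested. Counts followed the rule. Touching peaks alone gave 290 domains in 236 genes with 9.92% of peaks. Gaps of 25 and 100 nt gave 20.5% and 46.0% of peaks. A width of 200 nt gave 1566 domains in 825 genes with 48.5% of peaks, and 500 nt gave 175 in 141 genes with 12.9%. Peaks of a log2 fold enrichment of at least 4 gave 161 domains in 109 genes with 24.0% of those peaks, and peaks of a −log10 p of at least 5 gave 32.2%. Asking for 300 bases under peaks, an alternative chosen after seeing the data, gave 27.2% of peaks and 600 domains. Assignment to the gene on the strand of the domain, also added later, gave 393 genes. Merging without regard to strand changed no count. No paired analysis was possible because the list gives 1 value per peak over all libraries, and leaving out a replicate was not possible for the same reason. Read depth per peak is unknown, and the lack of a domain does not show that a transcript was unbound.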
